A study of Mus musculus with 8 samples.

Results

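Transcripts of 10 oncofetal and liver progenitor markers were examined in mouse liver tumors grown from HCA-1, a mouse hepatocellular carcinoma line. The markers were Afp, Gpc3, H19, Igf2, Dlk1, Epcam, Krt19, Sox9, Spp1 and Cd24a. They were chosen by gene symbol, and each symbol matched 1 of the 55536 genes of the count table through its Ensembl identifier. Of the 10, 8 passed the filter on low counts and were among the 15998 genes tested, while Igf2 and Dlk1 did not pass. The tumors were orthotopic, that is, HCA-1 cells had been implanted into the liver of male C3H mice aged 6 to 8 weeks by the sample labels (4 to 6 weeks by the methods). All mice were injected on day 17 after implantation, and all tumors were harvested 3 h later. The 4 control mice received saline (replicates 1, 3, 4 and 5), and the 4 treated mice received PFSUV-IMQ at 4 mg/kg (replicates 1, 2, 3 and 4), which is imiquimod, a TLR7 agonist, carried in phospholipid-free small unilamellar vesicles. Every tumor derives from the same cell line, so the 8 tumors are 8 hosts of 1 tumor model. The RNA was from whole tumor pieces, in which fewer cells of a type and less RNA per cell cannot be told apart.

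Oncofetal genes are active in the fetal liver, are silenced in the hepatocytes of the adult, and are often switched on again in hepatocellular carcinoma. Afp and Gpc3 are the best known of them and serve as a serum marker and a surface target of liver cancer. Progenitor markers such as Sox9, Epcam and Krt19 are carried by bile duct cells and by bipotent liver progenitors, and their presence in a hepatocellular carcinoma is commonly read as a stem-like or biliary trait of the tumor cells. Macrophages, stellate cells and lymphocytes within a tumor can also express some of these genes, in particular Spp1 and Cd24a.

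The deposited counts totalled between 16883911 and 27687756 in the control tumors and between 17008151 and 18527613 in the PFSUV-IMQ tumors. Levels are given as CPM, read counts scaled by the TMM effective library size of each tumor, and levels of different genes are compared only as CPM per kb of exon. Differences are log2 fold changes of PFSUV-IMQ against control ± their standard error (SE), with the adjusted p of the quasi-likelihood test of edgeR over all tested genes and, for the markers, an approximate 95% interval in fold. At these depths 3 counts, the smallest signal taken as shown, correspond to 0.105 to 0.210 CPM depending on the tumor, a limit that reflects counting error only. All 6 interferon-response genes used as a check of the treatment labels were called higher after PFSUV-IMQ, beside 2.46% of all tested genes. Their median log2 fold change was 5.74. The paper had already reported such genes as higher in these tumors, so this checks the labels only. Coordinates of genes are those of GENCODE M21 on GRCm38. The summed level of 12 hepatocyte markers, among them Alb, ranged from 5267 to 40895 CPM in the control tumors and from 8628 to 47591 CPM in the PFSUV-IMQ tumors. Control replicate 4 and PFSUV-IMQ replicate 2 stood apart, since each of the 12 hepatocyte genes had its 2 highest levels in these 2 tumors. The other 6 tumors had sums of 5267 to 17194 CPM. The fit was therefore also made without these 2 tumors. The macrophage markers had their 2 highest sums in the same tumors, at 2777 and 2660 CPM against 1286 to 2295 CPM in the other 6. Gene by gene, only 5 of the 12 macrophage markers had their 2 highest levels there.

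Afp (chromosome 5, 90490737 to 90508907), the fetal counterpart of albumin, was detected in all 8 tumors but at a low level. It had 4.88, 4.85, 6.01 and 6.08 CPM in control replicates 1, 3, 4 and 5, and 5.41, 2.10, 5.86 and 5.79 CPM in PFSUV-IMQ replicates 1, 2, 3 and 4. Of these, 7 tumors lay close together, and PFSUV-IMQ replicate 2 was well below the rest with 30 counts. Group means were 5.46 ± 0.682 and 4.79 ± 1.80 CPM (SD, n = 4 each), and the groups overlapped. As a log2 fold change, the difference was -0.18 ± 0.32 (SE, adjusted p = 0.891), and its interval ran from 0.532-fold to 1.45-fold. The 300 bases around the RefSeq start of Afp are printed because this promoter is the classical example of a fetal liver promoter that is silenced after birth. It lies at chr5:90490464-90490763 on the plus strand of GRCm38.p6, and the capitals mark a TATA box (TATAAA) and a GTTAAT motif of the HNF1 factors.
Afp: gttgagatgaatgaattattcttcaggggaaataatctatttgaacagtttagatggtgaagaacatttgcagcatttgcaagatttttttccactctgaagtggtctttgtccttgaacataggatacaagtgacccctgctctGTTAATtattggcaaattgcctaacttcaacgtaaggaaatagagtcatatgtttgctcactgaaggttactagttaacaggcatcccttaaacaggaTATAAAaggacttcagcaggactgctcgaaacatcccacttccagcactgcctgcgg

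Gpc3 (chromosome X, 52272426 to 52613950), a heparan sulfate proteoglycan of the cell surface, was the lowest of the 8 tested markers per kb of exon. It had 1.29, 0.773, 1.68 and 1.19 CPM in control replicates 1, 3, 4 and 5, and 1.99, 0.629, 1.95 and 1.71 CPM in PFSUV-IMQ replicates 1, 2, 3 and 4. PFSUV-IMQ replicate 2 was the lowest of all tumors for this gene too, at 9 counts, whereas the other 3 PFSUV-IMQ tumors were above every control tumor. Control and PFSUV-IMQ means were 1.23 ± 0.371 and 1.57 ± 0.639 CPM (SD, n = 4 each), and the difference was 0.36 ± 0.41 in log2 (SE, adjusted p = 0.805), with an interval from 0.681-fold to 2.41-fold.

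H19, Igf2 and Dlk1 are imprinted genes of fetal growth. H19 (chromosome 7, 142575529 to 142578143) is a long non-coding RNA expressed from the maternal allele, Igf2 (chromosome 7, 142650766 to 142666816) is the growth factor beside it on chromosome 7 that is expressed from the paternal allele, and Dlk1 (chromosome 12, 109452823 to 109463336) is a transmembrane protein of fetal hepatoblasts. Of these 3, only H19 had more than 2 counts in any tumor. It had 4.10, 1.44, 1.98 and 3.53 CPM in control replicates 1, 3, 4 and 5, and 0.772, 2.31, 1.95 and 3.14 CPM in PFSUV-IMQ replicates 1, 2, 3 and 4. Control replicate 1 was the highest and PFSUV-IMQ replicate 1 the lowest, and the other tumors of both groups were interleaved between them. Means were 2.76 ± 1.26 in control and 2.04 ± 0.983 CPM in PFSUV-IMQ tumors (SD, n = 4 each), the log2 fold change was -0.43 ± 0.47 (SE, adjusted p = 0.795), and the interval ran from 0.356-fold to 1.55-fold. An exon of H19 also holds the hairpin of miR-675, whose mature sequences from RefSeq are given because they are a known product of H19. They map to chr7:142577112-142577133 and chr7:142577078-142577099 on the minus strand of GRCm38.p6. The capitals mark the seed, bases 2 to 8, and the 2 seeds differ.
mmu-miR-675-5p: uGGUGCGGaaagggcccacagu
mmu-miR-675-3p: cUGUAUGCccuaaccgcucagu

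The separate miR-675 gene entry had 0 counts in all tumors, and small RNAs were not measured by these mRNA libraries. Igf2 had 1 count in control replicate 4, 1 count in PFSUV-IMQ replicate 4 and 0 in the other 6 tumors. Dlk1 had 2 counts in control replicate 4, 2 in PFSUV-IMQ replicate 2, 1 in PFSUV-IMQ replicate 3 and 0 in the other 5 tumors. Both genes were below the limit of 3 counts in every tumor, so no fold change is given and no difference was detectable at this depth. For Igf2 there is an added limit in the annotation. Gm49394, a protein-coding gene model on the same strand, overlaps 62.8% of the exon bases of Igf2, and 75.9% of the 50-base words of the longest Igf2 transcript also occur in Gm49394. Reads from such bases could have been left out of the counts as ambiguous, Gm49394 itself had 0 counts, and the part of this overlap in the low Igf2 counts was not tested. No other gene overlaps the exons of Dlk1.

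Epcam (chromosome 17, 87635979 to 87651129), an adhesion molecule of bile duct and progenitor cells, had 8.34, 11.4, 9.67 and 5.43 CPM in control replicates 1, 3, 4 and 5, and 7.28, 9.22, 9.59 and 11.2 CPM in PFSUV-IMQ replicates 1, 2, 3 and 4. Control replicate 5 was the lowest and control replicate 3 the highest, so the PFSUV-IMQ tumors fell within the range of the control tumors. Mean levels were 8.71 ± 2.53 in control and 9.34 ± 1.63 CPM in PFSUV-IMQ tumors (SD, n = 4 each), and the log2 fold change was 0.097 ± 0.26 (SE, adjusted p = 0.934), with an interval from 0.716-fold to 1.60-fold.

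Krt19 (chromosome 11, 100140810 to 100148665), the keratin of bile duct epithelium, was the steadiest of the tested markers. It had 44.0, 46.5, 64.2 and 60.5 CPM in control replicates 1, 3, 4 and 5, and 70.8, 43.4, 52.2 and 50.4 CPM in PFSUV-IMQ replicates 1, 2, 3 and 4. Both the highest and the lowest level were in the PFSUV-IMQ group, and the highest was 1.63 times the lowest. The 4 control tumors averaged 53.8 ± 10.1 CPM and the 4 PFSUV-IMQ tumors 54.2 ± 11.7 CPM (SD). Their log2 fold change was 0.011 ± 0.20 (SE, adjusted p = 0.991), and the interval of 0.738-fold to 1.37-fold was the narrowest of the 8.

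Cd24a (chromosome 10, 43578284 to 43584265), a small glycosylated surface protein of progenitor cells that is also carried by immature B cells and neutrophils, had 18.1, 16.8, 26.1 and 18.5 CPM in control replicates 1, 3, 4 and 5, and 16.5, 32.5, 11.3 and 14.6 CPM in PFSUV-IMQ replicates 1, 2, 3 and 4. The highest tumor of each group was the one with the most hepatocyte RNA, and the other 3 PFSUV-IMQ tumors were below all control tumors. Group means were 19.9 ± 4.23 and 18.7 ± 9.44 CPM (SD, n = 4 each), and the difference was -0.089 ± 0.32 in log2 (SE, adjusted p = 0.955), with an interval from 0.571-fold to 1.55-fold.

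Sox9 (chromosome 11, 112782224 to 112787760), the transcription factor of bile duct cells and bipotent progenitors, had the smallest p of the 8 tested markers. It had 163, 170, 88.8 and 207 CPM in control replicates 1, 3, 4 and 5, and 243, 145, 266 and 251 CPM in PFSUV-IMQ replicates 1, 2, 3 and 4. Of the PFSUV-IMQ tumors, 3 were above every control tumor, and PFSUV-IMQ replicate 2 was below 3 of the control tumors, so the groups overlapped. On average the groups had 157 ± 49.5 and 226 ± 55.0 CPM (SD, n = 4 each). The log2 fold change was 0.52 ± 0.28 (SE, unadjusted p = 0.0956, adjusted p = 0.511) and did not pass the test, and the interval ran from 0.926-fold to 2.23-fold.

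Spp1 (chromosome 5, 104435118 to 104441050), which encodes osteopontin, a secreted ligand of integrins and CD44, was by far the most abundant marker and ranked 8 by CPM per kb among all genes counted. It had 6846, 7817, 1865 and 7474 CPM in control replicates 1, 3, 4 and 5, and 6774, 2946, 5752 and 6392 CPM in PFSUV-IMQ replicates 1, 2, 3 and 4. Control replicate 4 and PFSUV-IMQ replicate 2 were low, and the other 6 tumors lay between 5752 and 7817 CPM. This single gene took between 0.193% and 0.815% of all counts of a tumor. Control tumors had a mean of 6001 ± 2786 and PFSUV-IMQ tumors one of 5466 ± 1732 CPM (SD, n = 4 each). The log2 fold change was -0.13 ± 0.46 (SE, adjusted p = 0.951), and the interval ran from 0.449-fold to 1.85-fold. Exons of the gene model Gm42793 overlap 18.8% of the exon bases of Spp1, and that model had 302 counts in all 8 tumors against 936118 for Spp1. A RefSeq promoter of Spp1, at chr5:104434861-104435160 on the plus strand of GRCm38.p6, is shown beside that of Afp. It was picked because its letters hold the same pair of motifs, at other distances from the start. A further RefSeq promoter of Spp1, at chr5:104435942-104436241, holds neither motif and is not printed. The capitals mark TATAAA and GTTAAT as before.
Spp1: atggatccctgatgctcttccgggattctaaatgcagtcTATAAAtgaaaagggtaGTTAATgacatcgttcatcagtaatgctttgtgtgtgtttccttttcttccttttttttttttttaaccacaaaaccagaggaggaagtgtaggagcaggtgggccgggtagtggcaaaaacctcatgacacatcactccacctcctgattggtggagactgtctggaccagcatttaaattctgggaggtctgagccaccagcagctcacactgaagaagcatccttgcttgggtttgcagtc

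RefSeq promoters, 250 bases before to 50 bases after a start, were at hand for 6 of the 10 markers (Afp, Gpc3, Igf2, Dlk1, Epcam and Spp1), with 10 promoters in all. Positions are those of the first base of a match, with the base just before the RefSeq start at -1. In the Afp promoter GTTAAT began at -105 and TATAAA at -7, and the RefSeq start lies before the start of the gene in GENCODE. In the printed Spp1 promoter TATAAA began at -211 and GTTAAT at -194. Over all 32851 promoters of the table, 7.10% held GTTAAT on either strand and 8.32% held TATAAA on the strand of the gene. Both printed promoters held 3 CpG dinucleotides against a median of 7 over all promoters, while the promoter of Gpc3 held 30. The motifs TGANTCA of AP-1, TGGGAA of RBPJ and GGAATG of the TEAD factors, searched on both strands, occurred in 7.81%, 25.6% and 14.7% of all promoters. TGGGAA and GGAATG or their reverse complements were found in promoters of Igf2 alone among the markers, where a pair of matches overlapped in 1 promoter, and TGANTCA was found in none of the 10. A match describes these letters only.

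**Figure D1:**
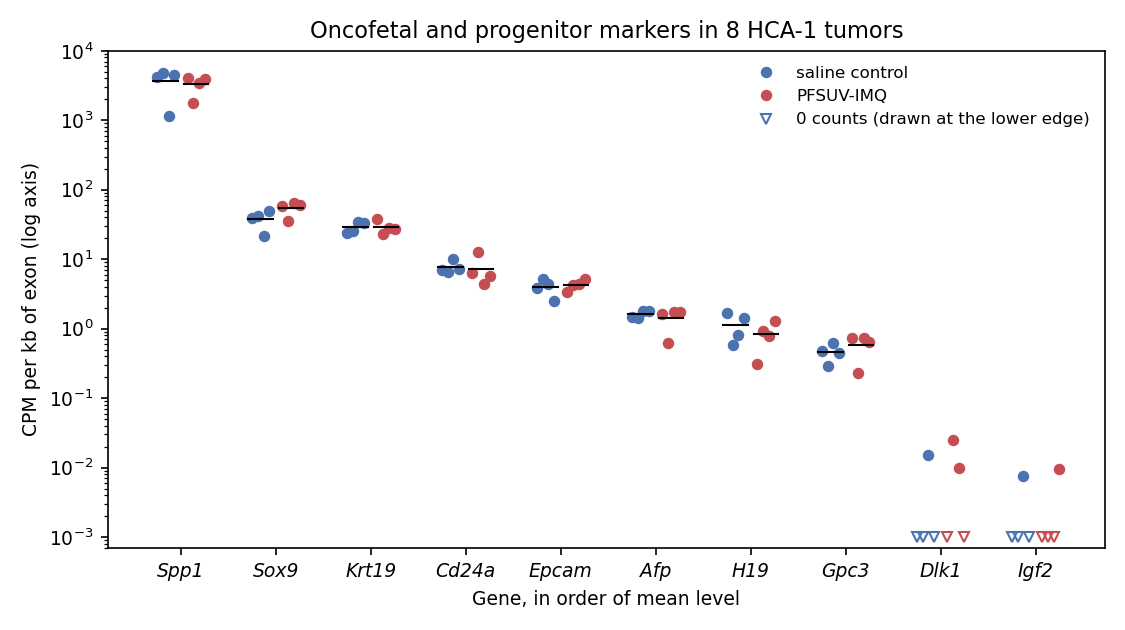
Level of each marker in each of the 8 tumors, in CPM per kb of exon on a log axis, with control tumors in blue, PFSUV-IMQ tumors in red and a bar at the mean of each group of 4. Spp1 lies at or above 1132 CPM per kb in every tumor, the next 7 markers spread from 0.234 to 64.4 CPM per kb, and Dlk1 and Igf2 are at 0 counts (open triangles) in 5 and 6 of the 8 tumors.

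Per kb of exon, the mean levels over the 8 tumors were 3479 CPM per kb for Spp1, 46.4 for Sox9, 29.1 for Krt19, 7.47 for Cd24a, 4.11 for Epcam, 1.52 for Afp, 0.977 for H19, 0.521 for Gpc3, 0.00622 for Dlk1 and 0.00214 for Igf2. The plot of levels by tumor shows this order. The progenitor and biliary markers thus made up the upper part of the order and the oncofetal genes the lower part. Neighbours whose ranges over the tumors overlapped were Sox9 and Krt19, Cd24a and Epcam, Afp and H19, H19 and Gpc3, and Dlk1 and Igf2. Within a tumor, Sox9 was above Krt19 in 7 of 8, Cd24a above Epcam in 7, H19 above Gpc3 in 7 and Afp above H19 in 6. Spp1 and Sox9, Krt19 and Cd24a, Epcam and Afp, and Gpc3 and Dlk1 were apart in all 8 tumors. So the label of the set was met unevenly in these tumors, with Spp1, Sox9 and Krt19 well expressed, Afp, H19 and Gpc3 scarce, and Igf2 and Dlk1 at the limit of detection.

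The markers also differed in how much they varied between tumors of the same group. As the SD of log2 CPM within groups, Spp1 varied most (0.81), followed by H19 (0.75), Gpc3 (0.60), Afp (0.51), Cd24a (0.50), Sox9 (0.47), Epcam (0.37) and Krt19 (0.28). Set among all tested genes, the spread of Spp1 was larger than that of 89.0% of genes and the spread of Krt19 larger than that of 31.8%. For H19 and Gpc3, with 14 to 89 and 9 to 39 counts per tumor, counting error is part of the spread, whereas Spp1 had at least 42171 counts in each tumor.

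The question put to the treatment was whether any of these markers had moved 3 h after PFSUV-IMQ. None of the 8 tested markers was called at an adjusted p under 0.05 by the quasi-likelihood test of edgeR, beside 2.68% of all 15998 tested genes (429 genes, of which 394 or 2.46% were higher and 35 or 0.219% lower). At an unadjusted p under 0.05 the count was also 0 of 8, beside 2078 (13.0%) of all tested genes, and the Wald test of DESeq2 called 0 of 8 with or without adjustment. The log2 fold changes were positive for Gpc3, Epcam, Krt19 and Sox9 and negative for Afp, H19, Spp1 and Cd24a. Their median was -0.039, and that of all tested genes was -0.033. The 2 groups overlapped for all 8 markers, while 9.28% of tested genes (1485) had groups that did not overlap. With so few genes, a count of 0 is near what the background share gives and does not show that the markers stayed the same. The intervals state what could have been missed, and those of Gpc3 and Sox9 include a rise of more than 2-fold, and those of H19 and Spp1 a fall to less than 0.5-fold. The sign was not stable to the choice of tumors for Afp, Epcam, Krt19, Spp1 and Cd24a. Without PFSUV-IMQ replicate 2 Afp was at 0.043 and Spp1 at 0.051 in log2, without control replicate 3 Spp1 was at 0.017 and Krt19 at -0.055, and without control replicate 5 Epcam was at -0.072. Krt19 was at -0.075 without control replicate 1 and at -0.15 without PFSUV-IMQ replicate 1, and Cd24a was at 0.070, 0.098 and 0.025 without control replicate 4, PFSUV-IMQ replicate 3 and PFSUV-IMQ replicate 4. Gpc3, H19 and Sox9 kept their sign with any 1 tumor left out.

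**Figure D2:**
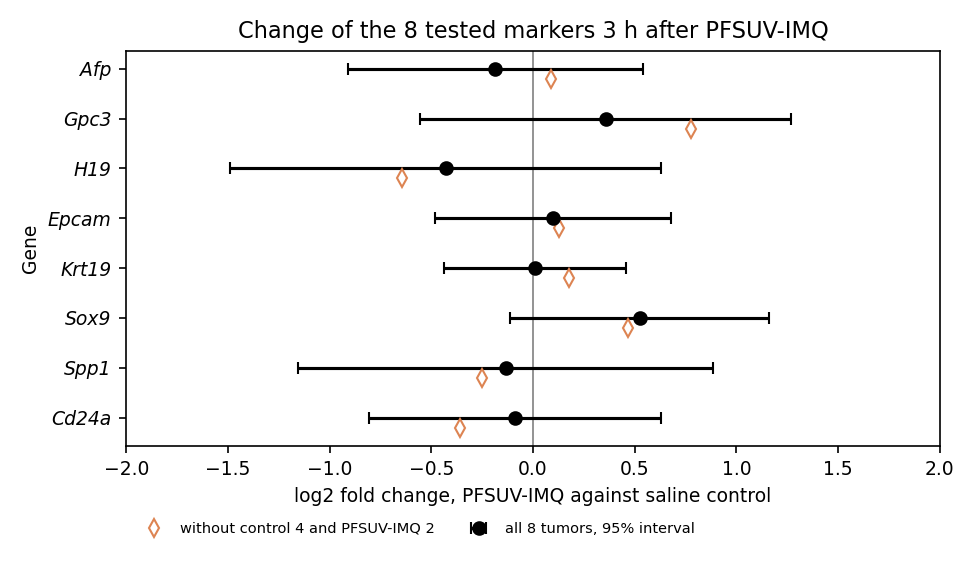
Log2 fold change of PFSUV-IMQ against control for the 8 tested markers, with its approximate 95% interval over all 8 tumors (black), and the value without control replicate 4 and PFSUV-IMQ replicate 2 (open diamonds). All 8 intervals include 0, and leaving out both tumors moved Gpc3 from 0.36 to 0.78 and Afp from -0.18 to 0.088.

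The 2 tumors with the most hepatocyte RNA were at the end of their group for several markers. Spp1 and Sox9 were at their lowest in control replicate 4 within the control group and in PFSUV-IMQ replicate 2 within the PFSUV-IMQ group, and Cd24a was at its highest in both. Afp, Gpc3 and Krt19 did not follow this pattern, since each was lowest of its group in PFSUV-IMQ replicate 2, while control replicate 4 was highest of its group for Gpc3 and Krt19 and second highest for Afp. Without the 2 tumors, the other 3 PFSUV-IMQ tumors had 243 to 266 CPM of Sox9 and the other 3 control tumors 163 to 207 CPM. The log2 fold change of Sox9 was then 0.47 ± 0.17 (SE, adjusted p = 0.304). For Spp1 it was -0.25 ± 0.16 (SE, adjusted p = 0.669), with 5752 to 6774 CPM after PFSUV-IMQ and 6846 to 7817 CPM in the control group. For Cd24a it was -0.36 ± 0.20 (SE, adjusted p = 0.622), with 11.3 to 16.5 CPM against 16.8 to 18.5 CPM. For Gpc3 it was 0.78 ± 0.35 (SE, adjusted p = 0.477), with 1.71 to 1.99 CPM against 0.773 to 1.29 CPM. Afp, H19, Epcam and Krt19 were at 0.088, -0.64, 0.13 and 0.18 in log2, with overlapping groups. In these 6 tumors the groups did not overlap for Sox9, Spp1, Cd24a and Gpc3, 4 of the 8 markers, beside 16.2% of all tested genes (2596 of 15998) in the same tumors. Both tumors left out were at an end of their group for each of these 4 markers. Leaving them out thus favours separation by itself, and the count of 4 is a description only. None of the 8 markers was called, and the 2 tumors were singled out after their values had been seen. The part of hepatocyte or macrophage RNA in these differences was not tested.

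**Figure D3:**
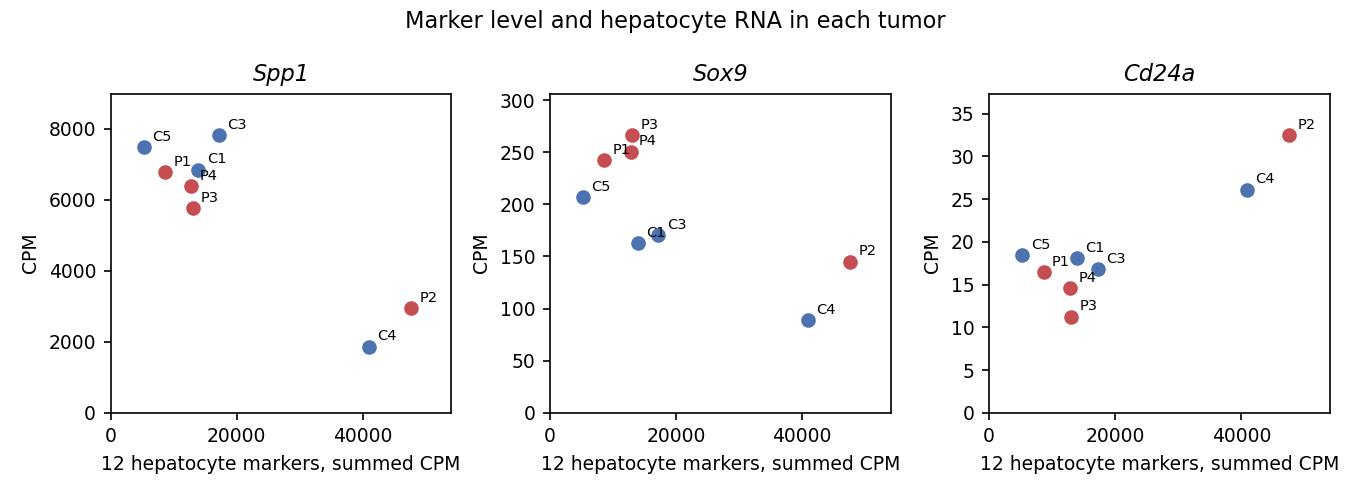
Level of Spp1, Sox9 and Cd24a in CPM against the summed CPM of 12 hepatocyte markers in each tumor, with control tumors (C) in blue and PFSUV-IMQ tumors (P) in red, each with its replicate number. C4 and P2, at 40895 and 47591 CPM of hepatocyte markers, lie apart from the other 6 tumors and have the lowest Spp1 and the highest Cd24a.

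Whether the markers varied together was examined over the 28 pairs of the 8 tested markers, as the correlation of log2 CPM over the 8 tumors with exact two-sided permutation tests. No pair passed after adjustment over the 28 pairs, where the smallest adjusted p was 0.265 for Pearson's r and 0.128 for Spearman's rho, and 4 pairs had an unadjusted p under 0.05 for r. Sox9 and Cd24a ran opposite to each other, with r = -0.79 (exact permutation p = 0.0221) and rho = -0.90 (exact permutation p = 0.00456, adjusted 0.128), and r was -0.74 without control replicate 4 and PFSUV-IMQ replicate 3, the 2 tumors farthest from the median of Sox9. As deviations from the group means, r was -0.83 for this pair. The other 3 pairs moved more when the farthest tumors were left out. For Afp and Gpc3 r was 0.76 (exact permutation p = 0.0150, rho 0.43) and 0.13 without control replicate 3 and PFSUV-IMQ replicate 2, while r of the deviations from group means was 0.90. For Sox9 and Spp1 r was 0.78 (exact permutation p = 0.0283, rho 0.24) and 0.51 without control replicate 4 and PFSUV-IMQ replicate 3, while r of the deviations was 0.95. For Spp1 and Cd24a r was -0.71 (exact permutation p = 0.0444, rho -0.21) and -0.73 for the deviations, and it turned to 0.85 in the 6 tumors without control replicate 4 and PFSUV-IMQ replicate 2.

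The genes whose level followed each marker most closely over the 8 tumors are given as a description, by Pearson's r of log2 CPM over all tested genes. The tumors differ in composition, for instance in hepatocyte RNA, and its part in these correlations was not tested. For Sox9 these were Ktn1 (r = 0.99) and Myc (0.98), and 119 genes had an r above 0.9. For Spp1 they were Gm6477, a processed pseudogene (0.99), and Sertm1 (0.98), both at low levels of 2.19 and 0.546 CPM. For Cd24a they were Pirb and Ncf4, both known from myeloid cells (0.97 each). For Afp they were BC025920 (0.98) and Lasp1 (0.97), for Krt19 Pigq (0.97) and Pdgfrb (0.95), for Epcam Tbpl1 (0.95) and Gm48308 (0.95), for Gpc3 Gm26578 and Adarb1 (0.93 each), and for H19 Rpl19-ps1 (0.92) and Gm4787 (0.90). H19 had the fewest genes above an r of 0.9, with 2, and Gpc3 had 6.

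Genes of the pathways around the markers were read from lists of regulators, fetal genes, imprinted genes, the IGF axis, the Notch axis, the Hippo pathway, biliary and progenitor genes, and receptors of osteopontin and CD24. Among 10 factors that act on Afp, H19 or Gpc3 transcription, 5 had a positive and 5 a negative log2 fold change and none was called. The largest differences were those of Foxa2, a pioneer factor of the liver, with a difference of 0.96 ± 0.53 (SE, adjusted p = 0.515), and Cebpa, a factor of the mature hepatocyte, with -0.57 ± 0.47 (SE, adjusted p = 0.721). Both had their 2 highest levels in control replicate 4 and PFSUV-IMQ replicate 2, at 7.26 and 13.6 CPM for Foxa2 and 156 and 116 CPM for Cebpa. Without both tumors Foxa2 was at 1.00 and Cebpa at -0.71 in log2 (adjusted p = 0.292 and 0.275). Foxa2 was at 0.45 without PFSUV-IMQ replicate 2 and at 1.52 without control replicate 4, and Cebpa at -1.15 and -0.13.

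Of 17 other fetal liver and oncofetal genes, 11 were tested, and 1 was called, beside 2.68% of all tested genes. Hk2 (chromosome 6, 82725025 to 82774454), the hexokinase of fetal and tumor tissue that replaces the glucokinase of hepatocytes, rose from 98.0 ± 23.9 to 187 ± 17.1 CPM (SD, n = 4 each), by 0.93 ± 0.21 in log2 (SE, adjusted p = 0.0497). It had 110, 112, 62.4 and 107 CPM in control replicates 1, 3, 4 and 5, and 194, 206, 180 and 166 CPM in PFSUV-IMQ replicates 1, 2, 3 and 4, so the groups did not overlap. The 6 genes that were not tested were Igf2bp1, Lin28a, Lin28b, Sall4, Trim71 and Plac1, with at most 0.331 CPM in any tumor, so the Lin28 factors of fetal growth were near the limit of 3 counts too. Hmga2, a chromatin protein of fetal tissue singled out after its values were seen, was by contrast abundant at 691 to 1642 CPM, and its log2 fold change was -0.05 ± 0.31 (SE, adjusted p = 0.970).

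Of 19 further genes of the imprinted growth network, 16 were tested, with 8 positive and 8 negative log2 fold changes and none called. The largest differences were both negative. Mest, a hydrolase of fetal mesoderm, had 8.37 ± 2.08 CPM in control and 3.29 ± 1.04 CPM in PFSUV-IMQ tumors with groups that did not overlap, and a log2 difference of -1.34 ± 0.32 (SE, adjusted p = 0.0615), and Peg3, a zinc finger factor, had -1.25 ± 0.45 (SE, adjusted p = 0.263). In the IGF axis, which carries the signal of Igf2, none of 14 genes was called. Of the 14, 11 had a positive log2 fold change, with a median of 0.19 beside -0.033 over all tested genes. Igfbp1, a secreted IGF binding protein of hepatocytes, had the largest at 2.57 ± 0.83 (SE, adjusted p = 0.185), where PFSUV-IMQ replicate 2 had 440 CPM and the other 3 PFSUV-IMQ tumors 28.7 to 56.8 CPM. It was at 0.94 in log2 without that tumor and at 1.32 without both tumors rich in hepatocyte RNA (adjusted p = 0.301 and 0.0745). Igfbp6, which binds IGF2 with preference, had 0.60 ± 0.22 (SE, adjusted p = 0.263).

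The Notch and Hippo pathways steer biliary fate and act on Sox9. In the Notch axis 6 of 12 genes had a positive log2 fold change, with a median of 0.04. Of the 12, 1 was called, beside 2.68% of all tested genes. Dll1 (chromosome 17, 15367354 to 15376872), a ligand of the Notch receptors, rose from 6.26 ± 1.55 to 14.3 ± 3.19 CPM (SD, n = 4 each), by 1.19 ± 0.25 in log2 (SE, adjusted p = 0.0381). It had 5.67, 7.13, 4.38 and 7.87 CPM in control replicates 1, 3, 4 and 5, and 11.8, 18.9, 13.9 and 12.5 CPM in PFSUV-IMQ replicates 1, 2, 3 and 4. Of 11 genes of the Hippo pathway, 5 were effectors (Yap1, Wwtr1, Tead1, Tead2 and Tead4) and 6 were targets. The effectors had 3 positive and 2 negative log2 fold changes with a median of 0.21, and none was called. The targets had 5 positive and 1 negative with a median of 0.63, beside -0.033 over all genes. Of the targets 1 was called, beside 2.68% of all tested genes. Ccn2 (chromosome 10, 24595442 to 24598683), a matricellular protein and classical target of YAP and TEAD, rose from 34.9 ± 4.93 to 135 ± 66.4 CPM (SD, n = 4 each), by 1.95 ± 0.30 in log2 (SE, adjusted p = 0.00940). The control tumors had 33.0, 42.1, 33.4 and 31.1 CPM and the PFSUV-IMQ tumors 105, 234, 96.6 and 103 CPM, so every PFSUV-IMQ tumor was well above every control tumor, and PFSUV-IMQ replicate 2 was the highest. Ccn2 was called with any 1 tumor left out and was at 1.49 ± 0.18 in log2 (SE, adjusted p = 0.00381) without both tumors rich in hepatocyte RNA.

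Among 24 other biliary and progenitor genes, 22 were tested, 15 with a positive and 7 with a negative log2 fold change. Their median was 0.074, beside -0.033 over all tested genes. Of the 22, 1 was called, beside 2.68% of all tested genes. Muc1 (chromosome 3, 89229057 to 89233381), a membrane mucin of bile duct epithelium, rose from 2.07 ± 0.305 to 4.49 ± 0.760 CPM (SD, n = 4 each), by 1.12 ± 0.25 in log2 (SE, adjusted p = 0.0499). It had 2.26, 1.62, 2.23 and 2.17 CPM in control replicates 1, 3, 4 and 5, and 4.58, 4.26, 5.46 and 3.64 CPM in PFSUV-IMQ replicates 1, 2, 3 and 4. Of 12 receptors of osteopontin and CD24, 8 had a positive log2 fold change and none was called. Their median was 0.21, beside -0.033 over all tested genes. Itgb6, a subunit of an epithelial integrin, had 2.11 ± 0.993 CPM in control and 7.82 ± 5.85 CPM in PFSUV-IMQ tumors (log2 fold change 1.88 ± 0.54 SE, adjusted p = 0.129), and Itga8, an integrin subunit of stellate and smooth muscle cells, had -1.69 ± 0.64 (SE, adjusted p = 0.289). Without PFSUV-IMQ replicate 2 Itgb6 was at 1.19 and Itga8 at -2.29 in log2, and without both tumors rich in hepatocyte RNA they were at 1.46 and -1.62.

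**Figure D4:**
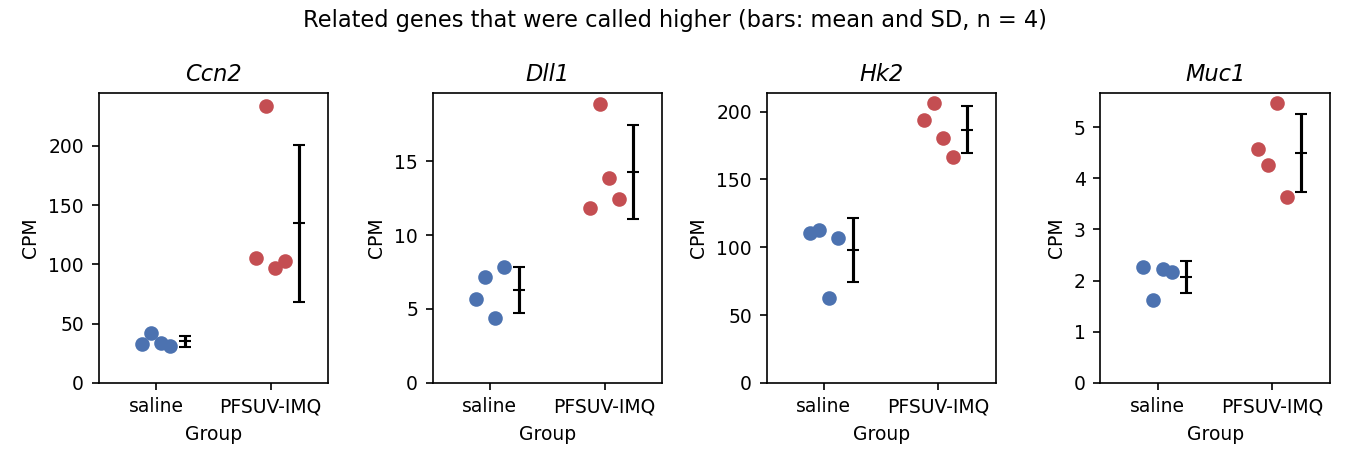
CPM of the 4 genes of the related lists that were called higher after PFSUV-IMQ (Ccn2, Dll1, Hk2 and Muc1), with 1 point per tumor and the mean and SD of each group of 4 beside it. The groups do not overlap for any of the 4, which were drawn because they were called, beside 9.28% of all tested genes without overlap. Ccn2 shows the largest difference, from 34.9 to 135 CPM on average.

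Calls in lists this short describe single genes and not their pathways. Of these 4 calls, those of Hk2 and Muc1 were close to the threshold. Both were lost with any 1 tumor left out, at adjusted p values from 0.0606 to 0.142 and from 0.0799 to 0.170. With all tumors kept, Hk2 also lost its call under DESeq2, upper-quartile and deposited size factors, without the filter on low counts and with at least 10 counts in every tumor (adjusted p from 0.0544 to 0.0748). Muc1 lost it under upper-quartile and deposited factors and without the filter (0.0504 to 0.103), and Dll1 under upper-quartile factors (0.0547). Of the fits that left out 1 tumor, Dll1 kept its call only without control replicate 5 or without PFSUV-IMQ replicate 1, and its adjusted p ranged from 0.0430 to 0.128. Without both tumors rich in hepatocyte RNA, the log2 fold changes of Dll1, Hk2 and Muc1 were 0.86, 0.69 and 1.16 at adjusted p values of 0.103, 0.0752 and 0.120.

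Markers of other cell types were read beside these results, since several of the 10 markers can come from cells other than the tumor cells. Every marker of the 6 lists had counts in at least 1 tumor. The 12 macrophage markers summed to 1838 to 2777 CPM in the control and 1286 to 2660 CPM in the PFSUV-IMQ tumors, highest in the same 2 tumors as the hepatocyte markers and Cd24a. Their median log2 fold change was -0.34, beside -0.033 over all tested genes, and 11 of the 12 had a negative one. The exception was Fcgr1, an Fc receptor of macrophages that is also induced by interferon. It rose from 32.6 ± 5.61 to 81.1 ± 31.3 CPM (log2 fold change 1.32 ± 0.26 SE, adjusted p = 0.0290). Fcgr1 was the only cell type marker called, beside 2.68% of all tested genes. Its call was lost without any 1 of the control tumors, at adjusted p values of up to 0.107. The 12 fibroblast and stellate markers summed to 2487 to 3402 CPM in the control tumors, and to 8207 CPM in PFSUV-IMQ replicate 1 against 3082 to 4365 CPM in the other 3 PFSUV-IMQ tumors. Here Lrat, the retinol esterifying enzyme of stellate cells, had a log2 fold change of -1.81 (adjusted p = 0.117) and Col1a1 one of 0.87 (adjusted p = 0.392). PFSUV-IMQ replicate 1 also had the highest Krt19 of all tumors and the lowest H19.

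The B cell and neutrophil markers, which bear on Cd24a, summed to 25.7 to 72.7 CPM in the control tumors and to 168 CPM in PFSUV-IMQ replicate 2, the tumor with the highest Cd24a, against 34.6 to 50.8 CPM in the other 3 PFSUV-IMQ tumors. In control replicate 4, which had the second highest Cd24a, the sum was 27.7 CPM. Retnlg, a neutrophil gene, and Pax5, the B cell factor, had the largest differences of this list, at 2.48 (adjusted p = 0.291) and 1.91 (adjusted p = 0.326) on the log2 scale, and none of its 9 tested genes was called. Both values leaned on PFSUV-IMQ replicate 2, without which Retnlg was at 1.38 and Pax5 at 0.91. All 5 tested erythroid markers had negative log2 fold changes, of which -1.44 for Hbb-bt and -1.24 for Hbb-bs were the largest (adjusted p = 0.253 and 0.176, and counts may be split between these near-identical copies). The sums of all 8 listed erythroid markers were 133 to 309 CPM in the control and 53.3 to 139 CPM in the PFSUV-IMQ tumors. The 10 proliferation markers summed to 686 to 912 and 583 to 824 CPM, with the lowest sum of each group in control replicate 4 and PFSUV-IMQ replicate 2, and Ccnb1 and Mki67 had log2 fold changes of -0.26 (adjusted p = 0.725) and -0.22 (adjusted p = 0.755). For the hepatocyte markers, 10 of 12 had positive log2 fold changes, with a median of 0.20 beside -0.033 over all tested genes, and none was called. Hpx was at 0.88 (adjusted p = 0.665) and Serpina1c at 0.71 (adjusted p = 0.785). Without PFSUV-IMQ replicate 2 Hpx was at 0.092 and Serpina1c at -0.11, so the sign of Serpina1c rested on that tumor, and without both tumors rich in hepatocyte RNA they were at 0.46 and 0.56. The part of these cell types in the levels of the 10 markers was not tested.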

How the data were processed

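RNA of 8 tumors was sequenced by the authors as poly(A) mRNA libraries. The submitters' processing notes name CASAVA, FastQC, MultiQC, Trimmomatic 0.38, HISAT2 2.1.0 and featureCounts 2.0.0, whereas the paper's methods name TopHat and HTSeq, and the genome build and strand setting are not given in the sources used here. The authors deposited whole-number counts of reads per gene, not normalized, and the tests used these. The deposited signal values are the same counts divided by DESeq2 size factors of the authors, and served for symbols (36670 genes) and 1 alternative. All 55536 identifiers are in GENCODE M21 (GRCm38), the source of coordinates and exon lengths.

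Groups were compared in R 4.3.3 with edgeR 4.0.16 (TMM, filterByExpr, quasi-likelihood test, two-sided), Benjamini-Hochberg adjustment over all tested genes, and a threshold of 0.05 on adjusted p. Standard errors were derived from the F statistic, and 95% intervals are approximate. Log2 CPM used a prior count of 2. Correlations were computed in Python 3.11.15 with scipy 1.17.1. Sequences are from RefSeq tables of GRCm38.p6. The fit was also run on counts simulated independently around the means of these tumors, which does not give its error rate in the tumors themselves. The markers and lists were chosen with earlier results of these data known, so their counts are descriptions beside the share over all genes. Named genes are all 10 markers, the called genes of each list or else its 2 largest differences, and the 2 genes most alike each marker. Both groups have a replicate 1, 3 and 4, from different animals, and no batch is given. The p values of the fit set each group difference against the spread between tumors of the same group. Alternatives were other scalings, other filters, the Wald test of DESeq2 1.42.0, a replicate term, each tumor left out and, added after seeing the data, the deposited size factors and the fit without both tumors richest in hepatocyte RNA.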

Additional observations from a re-analysis of the deposited data

Results flagged for a closer look

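In 14 of the 62 groups of 4 tumors examined, 1 tumor lay far from the other 3 by Dixon's criterion. Chance alone meets this criterion in about 1 of 20 groups that are independent and not selected. Many of these genes were named for the largest difference of their list, and all share the same tumors. The count is therefore a description and not a test against that rate. Of the 16 groups of the markers themselves, 2 had a tumor apart. Afp in PFSUV-IMQ replicate 2 was at 2.10 CPM against 5.41 to 5.86 CPM in the other 3, and Spp1 in control replicate 4 was at 1865 CPM against 6846 to 7817 CPM.

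PFSUV-IMQ replicate 2 was also the tumor apart for Cebpa (116 CPM against 35.9 to 42.5), Igfbp1 (440 against 28.7 to 56.8), Ccn2 (234 against 96.6 to 105), Itgb6 (16.6 against 4.41 to 5.57), Hpx (5127 against 1028 to 1549), Retnlg (11.0 against 1.87 to 2.06) and Pax5 (9.50 against 1.49 to 2.37). In each of these genes it was the highest. Control replicate 4 was apart for Hk2, at 62.4 CPM against 107 to 112. The remaining cases were Mest in PFSUV-IMQ replicate 3 at 1.73 CPM, Muc1 in control replicate 3 at 1.62 CPM, Col1a1 in PFSUV-IMQ replicate 1 at 3913 CPM and Hbb-bt in control replicate 1 at 22.4 CPM.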

How the results depend on the processing

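No marker was called under any of the settings run, and the adjusted p of Sox9 ranged from 0.0761 to 0.833. Signs that turned were those of Afp (0.12 with the replicate block, 0.088 without both tumors rich in hepatocyte RNA, -0.30 to 0.043 with each tumor left out), Epcam (-0.075 with the replicate block, -0.072 to 0.25), Krt19 (-0.057 with upper-quartile scaling, -0.15 to 0.11), Spp1 (0.42 with the replicate block, -0.44 to 0.051), Cd24a (-0.51 to 0.098), Hpx (-0.14 with the replicate block) and Serpina1c (-0.36 with the replicate block, -0.11 to 1.39). The cause was not tested. Genes called higher and lower numbered 394 and 35 in the reported fit, 732 and 180 by the Wald test of DESeq2, 519 and 302 with the replicate block, 64 lower without the filter on low counts, and 198 to 398 and 8 to 41 with each tumor left out, where fewer samples were fitted. Related genes called numbered 4, 3 with DESeq2 size factors, and 1 to 3 with each tumor left out, and cell type markers called numbered 1, and 0 to 1. Tumors of the same replicate number did not deviate together from their group means (same-number correlations of 0.29, -0.27 and -0.32). With so few tumors, which also differ in hepatocyte RNA, this cannot tell whether the numbers stand for a shared batch. Under the block Sox9 was at 0.90 (adjusted p = 0.0761). Replicate 2 is in the PFSUV-IMQ group only and replicate 5 in the control group only. Differences under the block thus rest on the tumors numbered 1, 3 and 4 of each group. Cebpa, Hbb-bs, Hbb-bt, Igfbp6, Itga8, Mest and Peg3 passed under the block and Muc1 did not (adjusted p = 0.100). Some genes not called in the reported fit passed elsewhere, namely Mest with upper-quartile factors (0.0433), without the filter (0.0362) and by the Wald test (0.00256), Itgb6 without the filter (0.0392) and by the Wald test (0.00980), Lrat by the Wald test (0.0114) and Igfbp1 without the filter (0.0365). Gpc3 had no value under the filter of at least 10 counts in every tumor. Igf2 and Dlk1 had at most 2 counts in a tumor, and Gpc3 had 9 to 39 counts per tumor.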
